A study of Mus musculus with 24 samples.

Results

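MicroRNA (miRNA) loci were examined in ribosome-depleted total RNA of 2 mouse tissues, as the RNA that spans and surrounds each annotated hairpin. The loci were the genes of type miRNA in the GENCODE M1 annotation of the mm9 genome. On the 19 autosomes there were 1468 of them, out of 1577 on all chromosomes and 37310 annotated genes of every type. Of these, 735 lay outside protein-coding genes and 733 inside the bounds of such a gene, 533 on the strand of the host and 200 on the other strand. Tags whose midpoint fell within 2 kb of a miRNA gene were counted after annotated protein-coding exons were taken out of the window. Windows of neighbouring genes that overlapped were joined, which left 1219 regions, 638 outside and 581 inside. A region held 1 gene in 1153 cases and 119 genes in the largest, a repeated cluster inside Sfmbt2. A RefSeq hairpin matched 439 of the genes, while 886 carried only the name of a sequenced clone.

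The CCE samples were 129/SvEv embryonic stem cells left to differentiate over 5 days without LIF and with 0.266 uM retinoic acid. The FH samples were fetal heads of FVB/N mice at 14.5 dpc, a mixture of many tissues. RNA was depleted with RiboMinus (14 libraries) or Ribo-Zero (1 library for each tissue), fragmented by hydrolysis of the RNA or shearing of the cDNA, and sequenced as tags that carry no strand. The 14 RiboMinus libraries came from 7 preparations of cDNA, and each was sequenced at Vienna-IMP and at Nijmegen and its tags summed. There were 4 such preparations for CCE and 3 for FH, where the RNA had 1 or 2 rounds of depletion. Sheared and hydrolysed preparations of the same number came from the same depleted RNA, so the 7 preparations represent 4 depleted RNAs, 2 of each tissue. The CCE RNAs were technical replicates and no separate animals are stated for FH, so p values measure the spread between preparations and not between animals or cultures. The Ribo-Zero RNA was a biological replicate.

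A miRNA is cut out of a much longer primary transcript. In the nucleus the enzyme Drosha releases the hairpin, and in the cytoplasm Dicer trims it to the mature strand, whose seed pairs with target mRNAs. The mature strands are shorter than the tags sequenced here, which had at least 34 bases, and the libraries were made of longer fragments still, so the values describe longer RNA such as primary transcripts and introns, not mature miRNAs. Loci outside protein-coding genes usually have their own promoter, whereas many loci in introns are made from the transcript of the host gene.

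The RiboMinus libraries held 1058045 to 2473448 unique tags in CCE and 920424 to 2188956 in FH, and the Ribo-Zero libraries 28708715 in CCE and 48426051 in FH. The tissue labels were checked with marker genes in RPKM. Pou5f1, a pluripotency factor, was at 17.9 ± 2.45 (SD, n = 4) in CCE and at 0 in FH, and the endoderm factor Gata6 was at 37.8 and 1.14. In FH the neuronal tubulin Tubb3 was at 217 against 16.9 in CCE, the lens crystallin Cryaa at 74.7 against 0.0626, the muscle factor Myog at 48.5 against 0, the embryonic globin Hbb-y at 933 against 0.759 and the basal keratin Krt5 at 89.1 against 0. The smooth muscle genes Tagln and Acta2 were at 1392 and 895 in CCE and at 17.9 and 36.1 in FH, whereas in Ribo-Zero RNA they were at 76.7 and 38.0 in CCE and at 5.03 and 21.5 in FH. Of the other neural markers, Nes and Stmn2 were higher in FH in both kinds of RNA. Sox2 was at 14.6 in CCE and 29.7 in FH, but at 42.7 and 21.4 in Ribo-Zero RNA. In such bulk RNA, more cells of a type and more RNA per cell cannot be told apart.

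The mature sequences below belong to the loci on which the comparison of FH and CCE turned, and to loci that share a mature strand or a seed. They are RefSeq entries of GRCm38.p6, written 5′ to 3′ with the seed, bases 2 to 8, in capitals. The first set belongs to loci whose windows were higher in FH. The window of Mir3093 also holds another miRNA gene, Gm25641, so its values cannot be assigned to Mir3093 alone.
miR-9-5p (Mir9-2 and Mir9-3): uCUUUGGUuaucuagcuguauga
miR-137-3p (Mir137): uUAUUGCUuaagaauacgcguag
miR-135a-5p (Mir135a-2): uAUGGCUUuuuauuccuauguga
miR-128-3p (Mir128-1 and Mir128-2): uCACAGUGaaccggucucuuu
miR-153-3p (Mir153): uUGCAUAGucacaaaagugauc
let-7b-5p (Mirlet7b): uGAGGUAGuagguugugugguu
let-7c-5p (Mirlet7c-1 and Mirlet7c-2): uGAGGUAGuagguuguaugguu
miR-205-5p (Mir205): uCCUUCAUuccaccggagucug
miR-203-3p (Mir203): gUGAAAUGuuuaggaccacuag
miR-206-3p (Mir206): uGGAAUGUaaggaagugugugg
miR-204-5p (Mir204): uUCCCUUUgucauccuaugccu
miR-214-3p (Mir214): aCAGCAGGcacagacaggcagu
miR-149-5p (Mir149): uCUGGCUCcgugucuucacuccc
miR-3093-3p (Mir3093): uGUGGACAccgugggagguugg
miR-675-5p (Mir675): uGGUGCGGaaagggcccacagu
The second set belongs to loci whose windows were lower in FH.
miR-196a-5p (Mir196a-1): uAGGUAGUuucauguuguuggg
miR-196b-5p (Mir196b): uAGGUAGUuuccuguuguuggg
miR-10a-5p (Mir10a): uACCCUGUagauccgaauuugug
miR-21a-5p (Mir21a): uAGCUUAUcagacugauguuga
miR-22-3p (Mir22): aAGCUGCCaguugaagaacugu
miR-1199-5p (Mir1199): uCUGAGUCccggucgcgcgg
The third set has loci in both directions, or 1 locus that was higher and 1 that was not called.
miR-34a-5p (Mir34a, lower): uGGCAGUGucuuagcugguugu
miR-449a-5p (Mir449a, higher): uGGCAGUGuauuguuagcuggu
miR-449c-5p (Mir449c, higher): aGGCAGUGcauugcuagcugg
miR-7a-5p (Mir7-2 higher, Mir7-1 not called): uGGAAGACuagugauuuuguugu
miR-199a-5p (Mir199a-2 higher, Mir199a-1 not called): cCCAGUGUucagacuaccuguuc

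Most miRNA windows that differed between the tissues were higher in FH, and this held outside and inside protein-coding genes. Levels are given as CPM, the tags of a window for every 1000000 unique tags of the preparation, and fold changes as FH minus CCE on the log2(CPM + 1) scale with their standard error, so that changes of low windows are understated. Of the 1219 regions, 367 had no tag in any RiboMinus library and 389 passed a mean of 1 CPM, 117 outside and 272 inside. Among these, 134 were higher and 20 lower in FH at an adjusted p under 0.05 (limma, Benjamini-Hochberg over 14144 miRNA windows and exon sets of protein-coding genes). That was 39.6% of the windows tested, against a background of 51.8% called in either direction, 23.8% called higher and 28% called lower among all features. Outside protein-coding genes 50 were higher and 7 lower, and inside 84 were higher and 13 lower. Of the calls 43 outside and 38 inside had a RefSeq hairpin, while 14 outside and 59 inside had none, and whether these make a miRNA was not tested. The CCE and FH preparations did not overlap in 144 of the 154 called windows, or 93.5%, against 93.9% of the called features overall. Of the 93 tested windows that belong to the groups below or are named, 31 were not called, and 18 of these were called with fragmentation as covariate, a setting in which 69.9% of all features were called.

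With the preparations of a depleted RNA summed, so that 2 RNAs of each tissue were compared, 193 windows were higher and 38 lower of 397 tested, and 70.0% of all features were called. The sums hold the same tags as the preparations. The FH RNA with 2 rounds of depletion was only hydrolysed, while the other RNAs were also sheared. The called windows of the groups and the other called windows named here were called in this comparison too. So were 13 of the 31 that were not called before, among them Mir25 to Mir106b, Mir10b and Mir99b with Mir125a as lower and Mir141 with Mir200c, Mir199a-1, Mir194-1 with Mir215 and Mirlet7d with Mirlet7a-1 as higher in FH.

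The median log2 fold change was 0.55 over the miRNA windows tested and -0.18 over all features. The filter admits windows through the tissue where they are high. With no filter on low features the median was 0.21 over 852 miRNA windows and -0.052 over all features. Coding exons took 61.8 to 69.1% of unique tags in CCE and 42.1 to 58.7% in FH RiboMinus libraries, so that tags outside coding exons made up more of the FH libraries. The part of this in the rise of the miRNA windows was not tested. With the tags outside coding exons as library size, 125 of 189 calls were higher in FH, 66.1% in place of 87.0%. On that scale the median was 0.24 over the miRNA windows and -0.62 over all features. The plot of fold changes shows how the windows moved in RiboMinus and Ribo-Zero RNA.

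**Figure D1:**
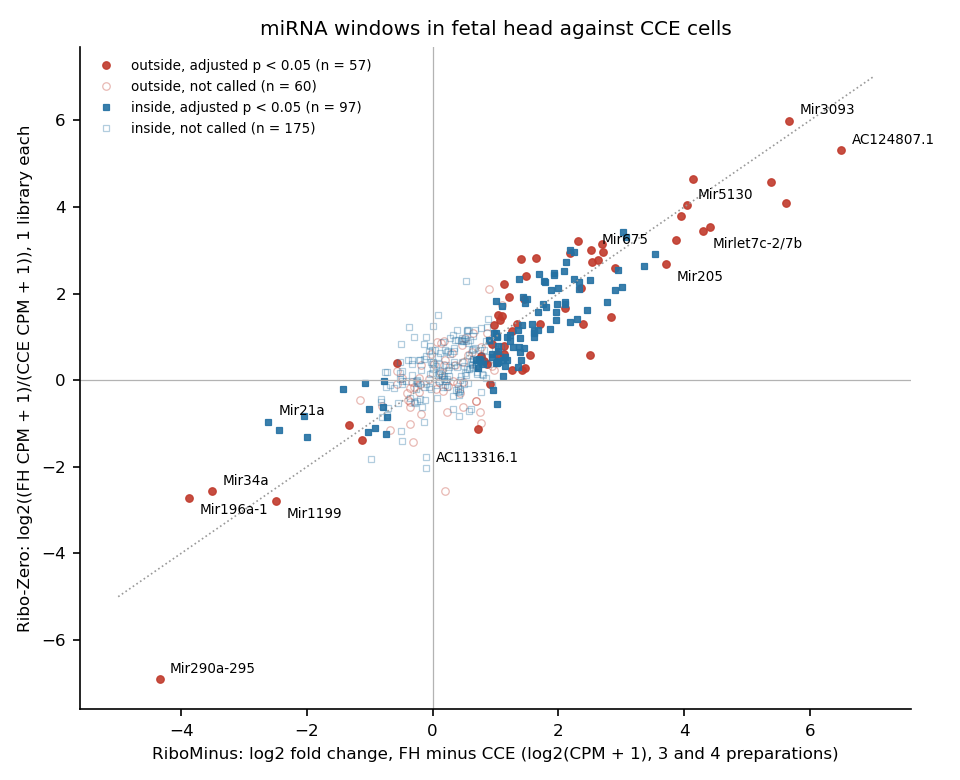
Each point is a miRNA window tested in RiboMinus RNA, with the log2 fold change of FH against CCE in RiboMinus preparations (4 CCE, 3 FH) on the x axis and the log2 ratio of CPM + 1 in the Ribo-Zero libraries (1 of each tissue) on the y axis. Filled points are the 57 windows outside and 97 inside protein-coding genes that were called, most of them in the upper right, and the dotted line marks equal values.

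The Ribo-Zero libraries were made from other RNA and have no replicate, so they give a direction and no test. Their totals include 2363248 mitochondrial tags in CCE and 2200005 in FH, a larger share in CCE, while the RiboMinus files hold none. Without these tags the Ribo-Zero ratios of FH to CCE would be somewhat lower, which the counting intervals do not cover. Of the 134 windows called higher, 130 were also higher there and 87 were past 2-fold, while 1 was past 2-fold lower. Of the 20 called lower, 19 were also lower and 11 were past 2-fold. Over all windows with a mean of 1 CPM in Ribo-Zero RNA, 454 in number, 128 were past 2-fold higher and 21 past 2-fold lower in FH, against a background of 16.9% higher and 24.1% lower among 14010 features. These windows are not independent replicates, because a transcript can run through several of them.

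The neural group held the loci that the annotation names after miRNAs known from neurons and neural progenitors (the miR-9, miR-124, miR-128, miR-137, miR-138, miR-153, miR-219, miR-132 and miR-212, miR-218, miR-7, miR-129, miR-135 and miR-488 families). Loci of these families under another name were not included. Of its 24 regions 19 were tested, 17 were higher in FH, none was lower and 2 were not called. For this and the other groups, the shares to set beside the counts are 34.4% higher and 5.14% lower over all miRNA windows tested, and 23.8% and 28% over all features. The median log2 fold change of those tested was 2.12, or 2.69 with the 2 windows that had no CCE tag set to their lower bound. Those higher included Mir124a-1 and Mir9-2, the points of reference, at 1.71 ± 0.59 and 1.65 ± 0.57 CPM in CCE (SD, n = 4) and at 133 ± 33.6 and 117 ± 50.8 CPM in FH (SD, n = 3). The calls of Mir212 and Mir132, Mir218-1 and Mir219a-2 were lost with the tags outside coding exons as library size (adjusted p = 0.087, 0.091 and 0.056). That of the first pair was also lost without any of 4 preparations, that of Mir218-1 without either hydrolysed FH preparation (adjusted p = 0.0687 and 0.0527), and those of Mir218-1 and Mir219a-2 in Nijmegen libraries alone (adjusted p = 0.456 and 0.416) and in single libraries with the title number as block (adjusted p = 0.113 and 0.0567).

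Mir137 (chr3:118136761-118137748, 127299 bases from Dpyd) makes a miRNA known from neuronal maturation. Its window held 0, 0.335, 0 and 0 CPM in the CCE preparations and 24.2, 19.6 and 21.7 CPM in the FH preparations. The groups did not overlap, and the 4 CCE values rested on 1 tag. The log2 fold change was 4.41 ± 0.24 (SE, adjusted p = 4.18e-07, limma). In Ribo-Zero RNA 2 CCE tags stood against 550 FH tags, a ratio of 163 with a 95% counting interval of 44.9 to 1349.6.

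Mir9-3 (chr7:86650150-86650239), in the non-coding gene AI854517, encodes the same mature miR-9-5p as Mir9-2. It held 0.751, 0, 0 and 0.37 CPM in CCE and 20.7, 23.8 and 18.7 CPM in FH. The window of Mir9-3 was higher in FH by 4.14 ± 0.28 on the log2 scale (adjusted p = 1.35e-06, limma), with no overlap of the groups. Per kb of window, FH held 5.16 CPM at Mir9-3 and 28.6 CPM at Mir9-2. Mir124a-3 held 5.05 to 13.7 CPM in CCE and 47.4 to 66.7 CPM in FH, with a log2 fold change of 2.69 ± 0.30 (adjusted p = 4.14e-05).

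Mir135a-2 and Mir1251 lie on the same stretch of chromosome 10, Mir1251 inside the non-coding gene Rmst, a transcript known from neural development. Mir135a-2 (chr10:91534831-91534930) held 0, 0.335, 1.78 and 0.37 CPM in CCE and 37.4, 7.41 and 31.5 CPM in FH. Mir1251, which is in none of the groups, held 0.501, 0, 0.297 and 0 CPM in CCE and 22.1, 7.41 and 29.8 CPM in FH. In both windows every FH preparation was above every CCE preparation, and the sheared FH preparation was the lowest of the 3. Their log2 fold changes were 3.87 ± 0.53 and 3.94 ± 0.42 (adjusted p = 0.000167 and 2.65e-05).

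The mature miR-7a is encoded in 2 of the windows tested, and these windows gave different values. Mir7-2 (chr7:86033163-86033259), outside protein-coding genes, had no tag in 4 of 4 CCE preparations and 8.62, 3.18 and 9.25 CPM in FH. Against a floor of 3 tags over the CCE preparations it was at least 34.2-fold higher in FH, and in Ribo-Zero RNA the ratio was 26.8 (interval 12.8 to 67.1). Mir7-1, in an intron of the ubiquitous splicing factor gene Hnrnpk, held 4.01, 2.01, 4.16 and 0.739 CPM in CCE and 4.58, 3.18 and 3.01 CPM in FH. These groups overlapped, and the log2 fold change of 0.41 ± 0.39 did not pass the test (adjusted p = 0.4). The difference between the loci was not tested.

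Of the let-7 and lin-4 type miRNAs, known as switches of developmental timing, all 12 regions were tested, 7 were higher in FH, 1 was lower and 4 were not called. The cluster of Mirlet7c-2 and Mirlet7b (chr15:85537033-85537833) held 1.75, 1.34, 2.67 and 1.11 CPM in CCE and 61.7, 36.5 and 59.2 CPM in FH. The log2 fold change was 4.29 ± 0.29 (adjusted p = 1.43e-06), and in Ribo-Zero RNA the ratio was 23.4 (interval 15.5 to 37.1). The other loci of this seed covered a wide range. Mir99a and Mirlet7c-1, which encode the same let-7c, had a log2 fold change of 2.32 ± 0.32 (adjusted p = 0.000163) and Mirlet7i one of 1.13 ± 0.27 (adjusted p = 0.00533, and 0.0569 in Vienna-IMP libraries alone). Mirlet7d and Mirlet7a-1 stood at 18.2 ± 11.4 and 27.6 ± 12.1 CPM and Mirlet7g at 2.19 ± 1.83 and 2.16 ± 1.17 CPM in CCE and FH, and neither was called (adjusted p = 0.27 and 0.874). The miR-125 family is of the lin-4 type, and its windows Mir125b-1 and Mir125b-2 were higher by 1.79 ± 0.39 and 2.53 ± 0.44, as was Mir100 of the miR-99 and miR-100 family by 2.19 ± 0.51. The joined window of Mir99b and Mir125a was not called (-0.51 ± 0.37, adjusted p = 0.271). The 1 window of this list that was lower in FH was Mir10a, which belongs to a Hox cluster.

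Of the 7 muscle regions 3 were below the filter and 4 were tested, and these 4 were higher in FH, with a median of 1.85. The call of 1 of them was lost with 1 kb on each side (0.59, adjusted p = 0.304) and with windows not joined (0.97, adjusted p = 0.155), and that of Mir133a-2 in Nijmegen libraries alone (1.03, adjusted p = 0.0741). The pair Mir206 and Mir133b (chr1:20669091-20672968), whose miRNAs are markers of skeletal muscle, had no CCE tag in any RiboMinus or Ribo-Zero library. FH held 6.19, 1.59 and 5.55 CPM, at least 21.9-fold more, and 398 Ribo-Zero tags, at least 78.6-fold more. Mir1a-1 held 0.335 to 1.48 CPM in CCE and 5.65 to 7.94 CPM in FH, a log2 fold change of 2.10 ± 0.29 (adjusted p = 0.000157). The heart muscle loci Mir208a, Mir208b and Mir499 were below the filter. The muscle markers Myog and Myh3 were at 48.5 and 9.30 RPKM in FH and at 0 in CCE. Actc1, also on the muscle list, was at 174 RPKM in FH and 15.4 in CCE. The part of these markers in the values of the windows was not tested.

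Of the 4 epithelial regions, which hold miRNAs known from skin and from epithelial cells in general, 3 were higher and 1 was not called, with a median of 1.82. In Ribo-Zero RNA 3 of the regions passed the filter, of which 1 was past 2-fold higher and none past 2-fold lower. Their median log2 ratio was 0.45. Mir205 (chr1:195333657-195333724, 137166 bases from Camk1g) held 0.751, 0.335, 0.891 and 0.37 CPM in CCE and 24.0, 14.8 and 21.1 CPM in FH. Its log2 fold change was 3.71 ± 0.27 (adjusted p = 2.15e-06). Mir203 (chr12:113369091-113369166), known from differentiating epidermis, had no tag in the CCE preparations and 5.39, 7.41 and 5.78 CPM in FH, at least 25.9-fold more. In both windows the groups were clearly apart. The miR-200 clusters differed less. Mir429 to Mir200b held 6.11 ± 1.62 CPM in CCE and 11.3 ± 2.11 CPM in FH, a log2 fold change of 0.81 ± 0.27 (adjusted p = 0.0279) whose call was lost without any of 4 preparations and in Nijmegen libraries alone (0.42, adjusted p = 0.433). It was also lost with the tags outside coding exons as library size (0.38, adjusted p = 0.257). The same held with repeated positions counted 1 time and with the title number as block (adjusted p = 0.0534 and 0.0507). Mir141 and Mir200c, at 0.852 ± 0.703 and 2.05 ± 0.534 CPM, was not called (adjusted p = 0.0627). Epcam, a general epithelial gene, was at 11.0 RPKM in CCE and 5.73 in FH, in contrast to the basal keratins Krt5 and Krt14.

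In the eye and sensory group 2 of 4 regions were tested. Mir204, whose miRNA is known from the retinal pigment epithelium and lens, lies in an intron of the channel gene Trpm3. It had no CCE tag and 4.04, 3.18 and 3.47 CPM in FH, at least 15.8-fold more, and in Ribo-Zero RNA at least 67.4-fold more. The cluster Mir182 to Mir183, known from sensory cells, held 10.7 ± 2.42 CPM in CCE and 13.1 ± 4.73 CPM in FH and was not called (adjusted p = 0.544). In hydrolysed preparations it was called higher (0.60, adjusted p = 0.0252). With the tags outside coding exons as library size its direction was reversed. The erythroid pair Mir144 and Mir451a was below the filter in both tissues, at 0.712 ± 0.441 and 0.767 ± 0.281 CPM, although Hbb-y reached 933 RPKM in FH. Of the 4 endoderm regions only Mir194-1 with Mir215 was tested, and it was not called (0.84 ± 0.35, adjusted p = 0.0649).

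The group of mesenchymal and smooth muscle miRNAs was split. Of its 7 regions 3 were higher, 1 was lower and 3 were not called. Among the last was the pair Mir145 and Mir143, which was called higher in FH in several alternatives. These included fragmentation as covariate (0.54, adjusted p = 0.0186), hydrolysed preparations (0.75, adjusted p = 0.00206) and depleted RNAs (0.76, adjusted p = 0.00092). Mir214 and Mir199a-2 lie in the non-coding gene Dnm3os, on the strand opposite to the dynamin gene Dnm3, and are known from embryonic mesenchyme. Mir214 (chr1:164153499-164153608) held 1.00, 0.335, 2.38 and 0.739 CPM in CCE and 26.9, 10.6 and 24.99 CPM in FH, a log2 fold change of 3.35 ± 0.40 (adjusted p = 6.21e-05). Mir199a-2 held 2.59 to 8.02 CPM in CCE and 18.0 to 57.9 CPM in FH, 2.95 ± 0.45 on the log2 scale (adjusted p = 0.000316). Mir199a-1, in Dnm2, encodes the same mature strands and stood at 1.76 ± 0.80 and 4.17 ± 2.44 CPM without passing the test (adjusted p = 0.0777). Again the difference between loci was not tested.

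Mir21a (chr11:86397569-86397660), in the vacuole membrane gene Vmp1, was the lower member of the group. It held 17.0, 9.38, 22.3 and 8.87 CPM in CCE and 3.50, 0 and 1.85 CPM in FH, a log2 fold change of -2.62 ± 0.50 (adjusted p = 0.00147). In Ribo-Zero RNA the ratio was 0.435 (interval 0.343 to 0.55), closer to 1 than the RiboMinus value. With 1 kb on each side the log2 fold change was -1.21, and without the sheared FH preparation it was -2.01. The smooth muscle markers Tagln, Acta2 and Cnn1 summed to 2106 to 2542 RPKM in the CCE preparations and to 39.1 to 64.9 in FH, but to 119 and 27.0 in Ribo-Zero RNA. Their part in the values of the group was not tested.

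Of the 6 miRNA regions in the Hox clusters 5 were tested, 3 were lower in FH and 2 were not called, with a median of -2.01, or -2.44 with the window that had no FH tag at its bound. Mir196a-1 (chr11:96126478-96126579) held 21.0, 9.38, 19.9 and 11.8 CPM in CCE and 0, 0 and 0.231 CPM in FH, a log2 fold change of -3.88 ± 0.32 (adjusted p = 4.74e-06). In Ribo-Zero RNA 175 CCE tags stood against 4 FH tags. Mir196b, in Hoxa9, shares the seed AGGUAGU with it and held 2.25, 3.35, 2.38 and 4.44 CPM in CCE and no tag in 3 of 3 FH preparations. It was at least 9.89-fold lower in RiboMinus RNA and at least 24.2-fold lower in Ribo-Zero RNA. The miR-196 family is known to target Hox mRNAs. Mir10a, in Hoxb4, held 6.76, 3.35, 11.9 and 4.81 CPM in CCE and 0, 0.529 and 0.463 CPM in FH (-2.44 ± 0.37, adjusted p = 0.000333). Its relative Mir10b, in Hoxd4, stood at 4.41 ± 1.64 and 2.22 ± 1.08 CPM and was not called (adjusted p = 0.0772).

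**Figure D2:**
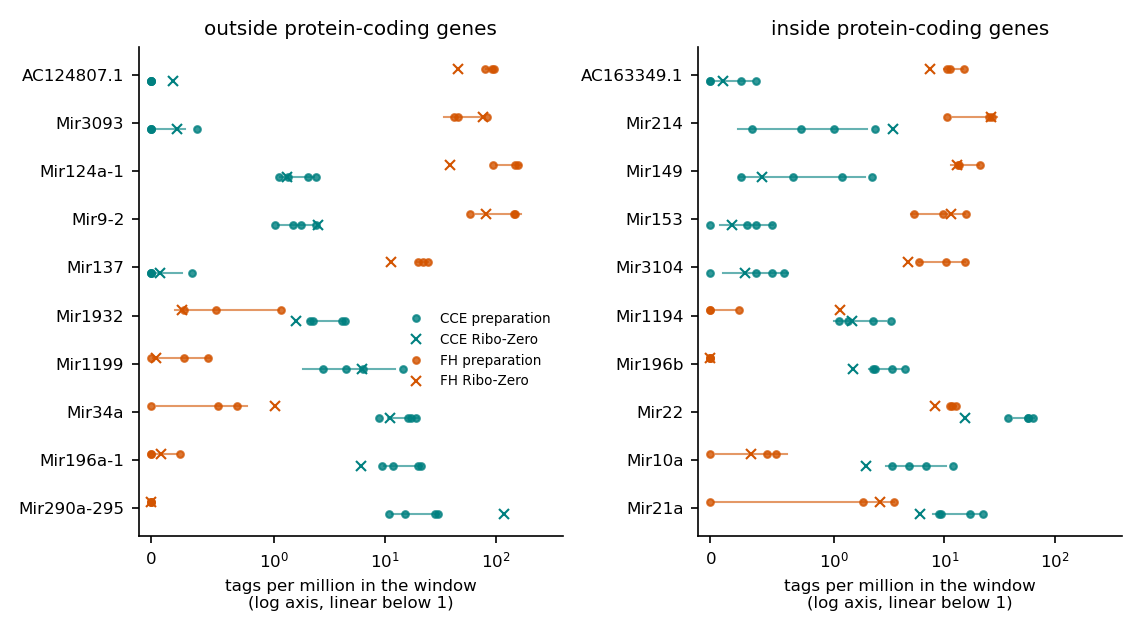
The 5 named windows in each direction, taken from called ones whose preparations did not overlap, are shown outside (left) and inside (right) protein-coding genes, with CPM on a log axis that is linear below 1. Points are RiboMinus preparations (4 CCE, 3 FH), lines their mean ± SD and crosses the Ribo-Zero libraries, which at Mir1194 and Mir21a lie closer together than the means of the points.

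Groups were filled by miRNA name, and several windows with large changes outside protein-coding genes were placed in none of them. AC124807.1 (chr3:17695662-17695770, 8764 bases from Gm10742) carries only a clone name in the annotation used. It could therefore enter no group, and whether it belongs to a family of the groups was not tested. It had no tag in 4 of 4 CCE preparations and 96.7, 79.9 and 92.5 CPM in FH, at least 399-fold more, and its Ribo-Zero tags were 5 and 2203. Mir3093 shares a joined window (chr3:88019093-88019618) in the non-coding gene Gm3764 with Gm25641, a miRNA gene that carries no miRNA name. The values belong to both loci and cannot be assigned to either. This window held 0, 0, 0 and 0.37 CPM in CCE and 41.5, 83.1 and 45.3 CPM in FH. Its log2 fold change was 5.67 ± 0.30 (adjusted p = 3.6e-07), and in Ribo-Zero RNA 6 tags stood against 3688. Mir5130 (chr14:103381766-103381849, 64345 bases from Irg1) was among the windows with the highest level per kb. It held 20.8, 29.1, 19.6 and 34.4 CPM in CCE and 357, 567 and 408 CPM in FH (4.05 ± 0.25, adjusted p = 8.27e-07). The sheared preparations were the highest of each tissue at Mir5130. With repeated positions counted 1 time, its fold change fell to 3.33.

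Lower in FH outside the Hox clusters was Mir34a (chr4:149442563-149442664, 18810 bases from Gpr157), whose miRNA is a known target of p53. It held 17.0, 8.71, 19.01 and 15.9 CPM in CCE and 0.539, 0 and 0.694 CPM in FH. The log2 fold change was -3.50 ± 0.32 (adjusted p = 1.04e-05), and 314 CCE tags stood against 49 FH tags in Ribo-Zero RNA. Mir449c to Mir449a, in Cdc20b, makes miRNAs with the same seed GGCAGUG and known from ciliated cells. It moved the other way, from 0, 0.335, 0 and 0 CPM in CCE to 3.77, 2.65 and 3.24 CPM in FH (1.96 ± 0.24, adjusted p = 7.23e-05). Seeds were compared only over loci with a mature entry in the reference used. Loci of 1 autosome were left out, and the reference held no entry for some loci, such as those of miR-124. Among the 48 seeds so found in more than 1 tested region, this was the 1 seed with calls in both directions. Of the 48, 12 had every region higher, 1 had every region lower (miR-196) and 16 had no call. These seeds are not separate sets of loci, since miR-9, miR-128, miR-181 and miR-344 each enter the 12 with both arms of their hairpins.

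Mir1199 and Mir1932 were also lower. Mir1199 (chr8:86535414-86535532) held 2.76, 14.4, 4.46 and 6.28 CPM in CCE and 0.269, 0 and 0.463 CPM in FH (-2.49 ± 0.43, adjusted p = 0.000744). It starts 73 bases from the protein-coding gene 2210011C24Rik, so unannotated parts of that gene cannot be told apart from a primary transcript. Mir1932 (chr11:119251786-119251875, 2539 bases from Rnf213) held 2.08 to 4.35 CPM in CCE and 0.269 to 1.16 CPM in FH (-1.33 ± 0.31, adjusted p = 0.00447), and its call was lost in Nijmegen libraries alone (-0.94, adjusted p = 0.234) and in single libraries without block (-0.93, adjusted p = 0.0544). As the point of reference, Mir290a to Mir295 held 10.7 to 30.0 CPM in CCE and no tag in any FH library. The other early embryo and proliferation loci were not called in the comparison of preparations. Mir17 to Mir92-1 held 37.8 ± 12.6 and 35.2 ± 18.6 CPM (adjusted p = 0.686), Mir25 to Mir106b in Mcm7 held 5.61 ± 1.81 and 2.75 ± 1.30 CPM (adjusted p = 0.0542), and Mir302b to Mir367 was below the filter. Mir25 to Mir106b was called lower in FH in hydrolysed preparations (-1.42, adjusted p = 0.00037), with the preparations of a depleted RNA summed (-1.03, adjusted p = 0.00121) and without the sheared FH preparation (-1.10, adjusted p = 0.0184). Mir17 to Mir92-1 was called lower with fragmentation as covariate (-0.42, adjusted p = 0.0439), but was at 0.33 without the sheared FH preparation. The reference window of Mir16-1 held 8.44 CPM in CCE and 16.4 CPM in FH and was not called (adjusted p = 0.072).

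The imprinted loci, where expression comes from 1 parental copy, included windows of high level such as Mir675 and Mir1906-1. All 17 regions were tested, 6 were higher in FH, none was lower and 11 were not called, with a median of 0.22, where 34.4% of all miRNA windows tested were higher. This count changed with the tags outside coding exons as library size, where 43.8% of all features were called lower. The calls of Mir770, Mir673 and Mir341 with Mir1188 were lost. Mir370, Mir882, Mir379 to Mir544, Mir382 to Mir410, Mir3072, Mir296 with Mir298, Mir483 and the cluster in Sfmbt2 were called lower in FH (-0.70 to -1.02). Mir675 (chr7:149762969-149763052) lies in the first exon of the non-coding gene H19. Its window, with H19 itself, held 128, 97.8, 111 and 69.5 CPM in CCE and 535, 551 and 630 CPM in FH (2.51 ± 0.23, adjusted p = 8.19e-06). In Ribo-Zero RNA the levels were 421 and 3395 CPM. Mir335, in the imprinted host Mest, held 1.11 to 3.27 CPM in CCE and 6.88 to 23.7 CPM in FH (2.25 ± 0.41, adjusted p = 0.00101). Mir1247, near the Dio3 end of the chromosome 12 domain, rose from 1.07 ± 0.33 to 10.7 ± 1.83 CPM (2.50 ± 0.26, adjusted p = 2.1e-05). In Ribo-Zero RNA Mir1247 was at 0.488 and 1.24 CPM, a ratio of 2.54 (interval 1.40 to 4.92).

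In the chromosome 12 domain between Dlk1 and Dio3 the 2 largest clusters were lower in FH within each kind of fragmentation. Mir379 to Mir544 (23 genes, chr12:110947235-110967612) held 234 and 247 CPM in the hydrolysed CCE preparations against 202 and 204 in FH, and 178 and 127 in the sheared CCE preparations against 110 in FH. Mir382 to Mir410 (12 genes) held 205 and 213 CPM against 167 and 163 in hydrolysed preparations, and 166 and 114 against 97.9 in sheared ones. Without regard to fragmentation the tissues overlapped, and neither cluster was called (-0.20 ± 0.30 and -0.29 ± 0.27, adjusted p = 0.595 and 0.403, limma). With fragmentation as covariate both were called lower in FH (-0.33 and -0.40, adjusted p = 0.0400 and 0.0169), as they were with the tags outside coding exons as library size (-0.71 and -0.80, adjusted p = 0.0420 and 0.0182). The Ribo-Zero ratios were 0.945 (interval 0.913 to 0.979) and 0.893 (0.864 to 0.924). Mir1906-1, in Meg3, held 136 to 250 CPM in CCE and 243 to 287 CPM in FH and was not called (adjusted p = 0.133). Mir770, further along Meg3, and Mir673 were called (1.14 ± 0.37 and 0.76 ± 0.20, adjusted p = 0.0251 and 0.00835), and both calls were lost with the tags outside coding exons as library size (adjusted p = 0.121 and 0.291). The call of Mir770 was also lost in Nijmegen libraries alone (adjusted p = 0.0766) and without any of 4 preparations (adjusted p = 0.0508, 0.0511, 0.0957 and 0.0833), and that of Mir673 with 1 kb on each side (adjusted p = 0.0576). Their Ribo-Zero ratios were 4.97 (interval 4.47 to 5.54) and 1.49 (1.35 to 1.66). Mir493 was not called (0.76, adjusted p = 0.0768), with a Ribo-Zero ratio of 1.80 (1.54 to 2.11). With fragmentation as covariate Mir1906-1 and Mir493 were called higher in FH (0.38 and 0.66, adjusted p = 0.0387 and 0.0179). Mir882 was called lower there (-0.54, adjusted p = 0.0451). Over depleted RNAs Mir1906-1 and Mir493 were called higher too (0.40 and 0.79, adjusted p = 0.0149 and 0.00142). The large cluster in Sfmbt2 held 5.59 ± 1.30 and 3.65 ± 0.59 CPM and was not called (adjusted p = 0.135). It was called lower in FH with fragmentation as covariate (-0.55, adjusted p = 0.0441) and in hydrolysed preparations (-0.64, adjusted p = 0.0407). With the tags outside coding exons as library size it was at -1.02 (adjusted p = 0.0108).

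Inside protein-coding genes, the 5 windows with the largest increase were AC163349.1, Mir214, Mir149, Mir153 and Mir3104. AC163349.1, in the glutamate receptor gene Gria2, held 0.25, 0, 0 and 0.37 CPM in CCE and 15.1, 10.6 and 11.3 CPM in FH (3.53 ± 0.25, adjusted p = 2.01e-06), and 2.41 on the log2 scale with 1 kb on each side. Mir149 (chr1:94746955-94747020), in the glypican gene Gpc1, held 0.25, 0.67, 1.19 and 2.22 CPM in CCE and 13.5, 13.2 and 21.1 CPM in FH (3.08 ± 0.35, adjusted p = 4.3e-05). Mir153, in Ptprn2, a gene of secretory vesicles, held 0 to 0.501 CPM in CCE and 5.29 to 15.6 CPM in FH. Mir3104, in the neuronal kinase gene Brsk2, held 0 to 0.594 CPM in CCE and 5.92 to 15.4 CPM in FH. The last 2 had log2 fold changes of 3.02 ± 0.34 and 3.02 ± 0.33 (adjusted p = 4.08e-05 and 3.27e-05).

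The windows with the largest decrease inside genes were Mir21a and Mir10a, and then Mir22, Mir196b and Mir1194. Mir22 (chr11:75277218-75277312) is annotated in Tlcd2 and in the non-coding gene 2210403K04Rik. It held 62.4, 37.2, 56.4 and 56.9 CPM in CCE and 11.3, 11.6 and 12.7 CPM in FH, -2.05 ± 0.23 on the log2 scale (adjusted p = 3.53e-05). The Ribo-Zero ratio of Mir22 was 0.537 (interval 0.468 to 0.617). The Mir1194 copy in Slc16a6 held 1.11 to 3.27 CPM in CCE and 0 to 0.231 CPM in FH (-1.42 ± 0.29, adjusted p = 0.00226), while its Ribo-Zero interval of 0.51 to 1.19 included 1.

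Among the miRNA windows of highest level per kb was a different kind of locus. AC113316.1, a clone-named gene of 82 bases in an intron of Cdk8, held 10441 to 26245 CPM over the 7 preparations, and 423 and 102 CPM in the Ribo-Zero libraries. In RiboMinus libraries 192715 tags fell on the hairpin itself, in only 31 distinct positions. It was not called (adjusted p = 0.849). AC115697.1, on the other strand of Fgfr2, held 49.1 to 69.1 CPM in CCE and 30.3 to 106 CPM in FH, but 3.52 and 0.33 CPM in Ribo-Zero RNA. AL646020.1, near Purb, held 18.9 to 57.0 and 7.94 to 24.0 CPM and was not called (adjusted p = 0.0578). It was called lower in FH in several alternatives. These included fragmentation as covariate (-1.37, adjusted p = 2.81e-06), hydrolysed preparations (-1.41, adjusted p = 7.81e-06) and depleted RNAs (-1.14, adjusted p = 2.36e-06). AL669855.1 in Actg1 and Mir3082 in Stub1 were short windows, because most of their bases are coding exons, and neither was called.

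The change of a miRNA window inside a gene had the sign of the change of the host's exons in 141 of 206 tested windows on the strand of the host in RiboMinus RNA and in 126 in Ribo-Zero RNA. On the opposite strand it did so in 32 of 66 in both. Over the 206 tested windows on the strand of the host, the log2 ratio of FH to CCE in the window and in the host exons (pooled RiboMinus tags, CPM + 1) had a Pearson r of 0.777 and a Spearman rho of 0.755. In Ribo-Zero RNA these were 0.788 and 0.765. For the 66 windows on the opposite strand r was 0.714 and rho 0.608. The correlations run across regions that share libraries, and the window shares its pre-mRNA with the host, so they are a description. The medians differed, 0.48 for windows and -0.22 for host exons on the same strand, so that most points lie above the diagonal of the plot.

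**Figure D3:**
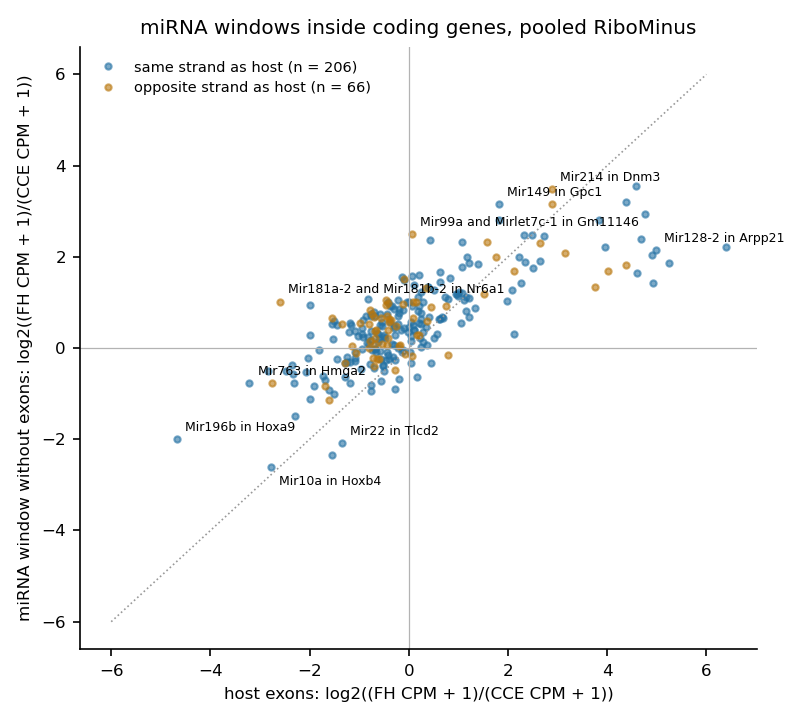
Each point is a miRNA window inside a protein-coding gene, with the log2 ratio of FH to CCE (CPM + 1, pooled RiboMinus tags) of the host's exons on the x axis and of the window without exons on the y axis. Windows on the strand of the host (n = 206) and on the other strand (n = 66) are coloured apart, and the dotted line marks equal ratios.

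For some windows the values of the host are given beside those of the window, and the differences between them were not tested. Mir128-1 and Mir128-2 encode the same mature miR-128-3p. The window of Mir128-1, in R3hdm1, rose in FH by 1.45 ± 0.24 (adjusted p = 0.000613), while the exons of R3hdm1 stood at 9.73 ± 2.45 and 10.3 ± 1.55 RPKM and were not called (adjusted p = 0.733). Mir128-2, in the neuronal gene Arpp21, had no CCE tag and 2.96, 3.18 and 3.93 CPM in FH, and the exons of Arpp21 went from 0.0392 to 3.02 RPKM. Mir140, known from cartilage, in the ubiquitin ligase gene Wwp2, held 5.01 to 7.03 CPM in CCE and 22.8 to 37.2 CPM in FH (2.24 ± 0.25, adjusted p = 4.42e-05), while the pooled log2 ratio of the Wwp2 exons was 0.42. On the opposite strand, Mir181a-2 and Mir181b-2 in the nuclear receptor gene Nr6a1 had a pooled log2 ratio of 1.02 against -2.60 for the exons of the host. The limma call of that window (adjusted p = 0.0472) was lost in several alternatives. Among these were Vienna-IMP and Nijmegen libraries alone (adjusted p = 0.0985 and 0.0712) and tags outside coding exons as library size (adjusted p = 0.164). On the same strand 6 windows were past 2-fold higher where the host exons were lower in FH, and on the opposite strand 3 were.

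In other hosts the decrease was larger than in the window. The exons of Igf2 went from 962 ± 152 to 354 ± 21.0 RPKM (-1.43 ± 0.24, adjusted p = 0.000666), while Mir483 in its intron held 17.2 ± 2.21 and 14.1 ± 1.29 CPM and was not called (adjusted p = 0.312). Mir763 in the chromatin gene Hmga2 had a pooled log2 ratio of -0.77 against -3.22 for the host. Mir10a and Hoxb4 were close to each other, at -2.60 and -2.78. Mir335 and Mest were close too, at 2.47 and 2.32.

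Outside protein-coding genes the tags around a hairpin belonged to long stretches. From the hairpin outward, bins of 500 bases were followed until 2 in a row held no tag, a protein-coding gene began or 50 kb were reached. In FH Ribo-Zero RNA the median stretch over 84 regions with a RefSeq hairpin was 23063 bases, 62 were over 10 kb, 22 reached 50 kb on at least 1 side and 44 ended at a protein-coding gene. In CCE Ribo-Zero RNA, with fewer tags, the median over 62 regions was 12091 bases. Pooled RiboMinus tags gave 10079 bases over 83 regions in FH and 7080 over 61 regions in CCE. The sets of regions differ between the libraries, so these medians do not compare the same loci. The libraries differ in depth, with 28708715 and 48426051 tags in Ribo-Zero RNA and 13049762 and 9924914 pooled RiboMinus tags in CCE and FH, and the part of depth in the lengths was not tested.

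For single loci the lengths come from 1 Ribo-Zero library of each tissue and are values with no test. At Mir137 the FH stretch ran 5500 bases upstream and to the limit of 50 kb downstream, while in CCE it ran 500 bases each way. Mirlet7c-2 and Mirlet7b reached 50 kb upstream and 6000 bases downstream in FH, against 11500 and 1500 in CCE. At Mir9-3 the stretch was 55090 bases in FH and 1090 in CCE, and at the joined window of Mir3093 and Gm25641 it was 38526 and 2026. At Mir34a the stretch was longer in CCE, the library of lower depth, with 24500 bases upstream and 7500 downstream in CCE and 13000 and 6500 in FH. At Mir17 to Mir92-1 the stretches were 20836 bases in CCE and 23836 in FH. Mir205 in FH ended 4500 bases upstream and 4000 downstream.

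**Figure D4:**
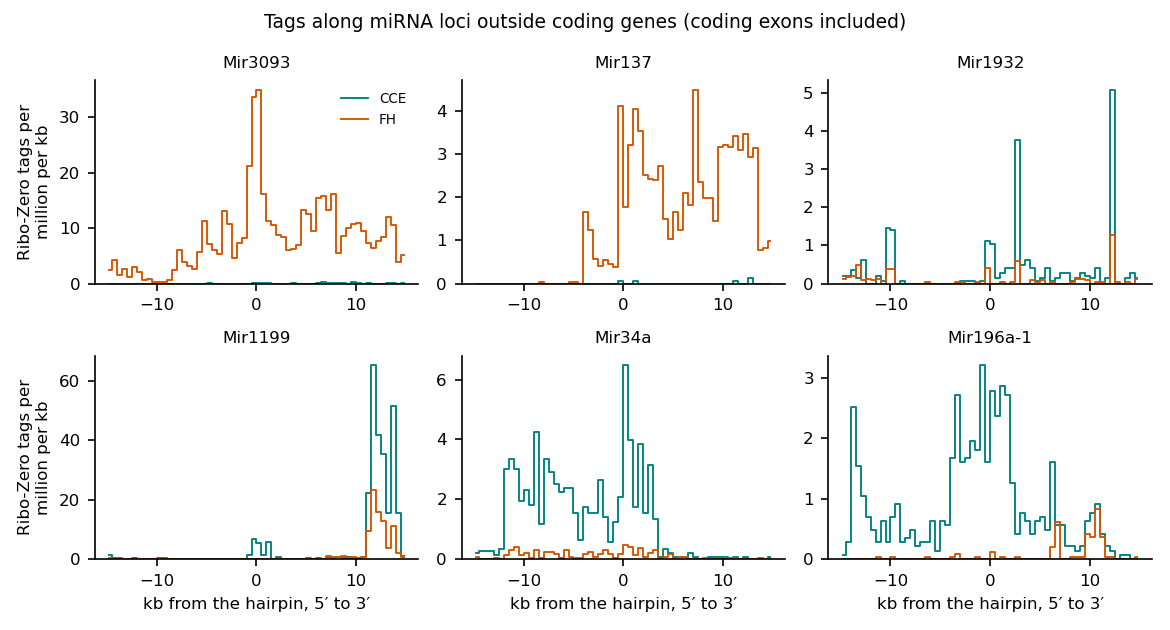
Ribo-Zero CPM per kb are plotted in bins of 500 bases up to 15 kb on each side of the hairpin, 5′ to 3′ along the miRNA gene, for CCE and FH at 6 loci outside protein-coding genes, with coding exons left in. The FH line stands above the CCE line at Mir3093, whose window also holds Gm25641, with a maximum of 34.9 against 0.209. At Mir137 the FH line is above the CCE line or, in 19 of 60 bins with no tag in either library, level with it. The maxima at Mir137 are 4.50 in FH and 0.139 in CCE. At Mir34a the CCE line has its maximum of 6.48 beside the hairpin against 0.454 in FH.

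Over the hairpin itself the tag density of known miRNAs was below that of the flanks. Density was counted per base that a unique 36-mer can reach, in the hairpin and at 50 to 500 bases on both sides. The 36-mers were matched exactly, whereas the authors allowed mismatches when aligning tags and excluded tags with several matches. A hairpin with a near copy elsewhere can thus lose tags at bases counted as reachable. The part of this in the ratios was not tested. Over 361 genes with a RefSeq hairpin the ratio of hairpin to flank was 0.575 ± 0.159 in CCE (SD, n = 4) and 0.547 ± 0.0925 in FH (SD, n = 3), below 1 in 7 of 7 preparations. The exact two-sided sign-flip test gave p = 0.015625 over the 7 preparations, the smallest it can give, and 0.04375 adjusted over 14 tests. These 7 are not independent, however, and over the 4 depleted RNAs, with ratios of 0.521 to 0.546, the exact test cannot go below 0.125, so that the difference from 1 could not pass the threshold. The values of the tissues overlapped, and with 4 against 3 preparations an exact permutation test could not go below 0.0571. The Ribo-Zero ratios were 0.595 in CCE and 0.679 in FH. The ratio was 0.431 to 0.526 in the hydrolysed and 0.648 to 0.754 in the sheared preparations, so fragmentation moved with its size. With the flank widened to almost 2 kb the ratio over the preparations was 0.715 in place of 0.551 and the FH Ribo-Zero ratio 0.951.

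Outside protein-coding genes 203 such genes gave ratios of 0.550 ± 0.147 in CCE and 0.520 ± 0.109 in FH (exact sign-flip p = 0.015625, adjusted 0.04375). Inside, 158 genes gave 0.744 ± 0.254 and 0.693 ± 0.0703, which did not pass the adjusted threshold (exact p = 0.03125, adjusted 0.0729). Over the 4 depleted RNAs the ratios were 0.483 to 0.527 outside and 0.643 to 0.727 inside. In the Ribo-Zero profile, the median density over genes outside fell to 0.283 in CCE and 0.295 in FH in the bin of 40 bases before the hairpin centre, from 1.01 and 1.04 in the bin that starts 200 bases before it. Of the genes outside with at least 50 flank tags, 94 of 105 had a ratio below 1 in FH and 64 of 70 in CCE, with medians of 0.367 and 0.283. Of the genes inside, 44 of 52 were below 1 in FH and 13 of 15 in CCE, with medians of 0.330 and 0.234. These counts and medians take genes by their flank tags, the denominator of the ratio. Genes with many hairpin tags and few flank tags are left out, which favours ratios below 1.

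**Figure D5:**
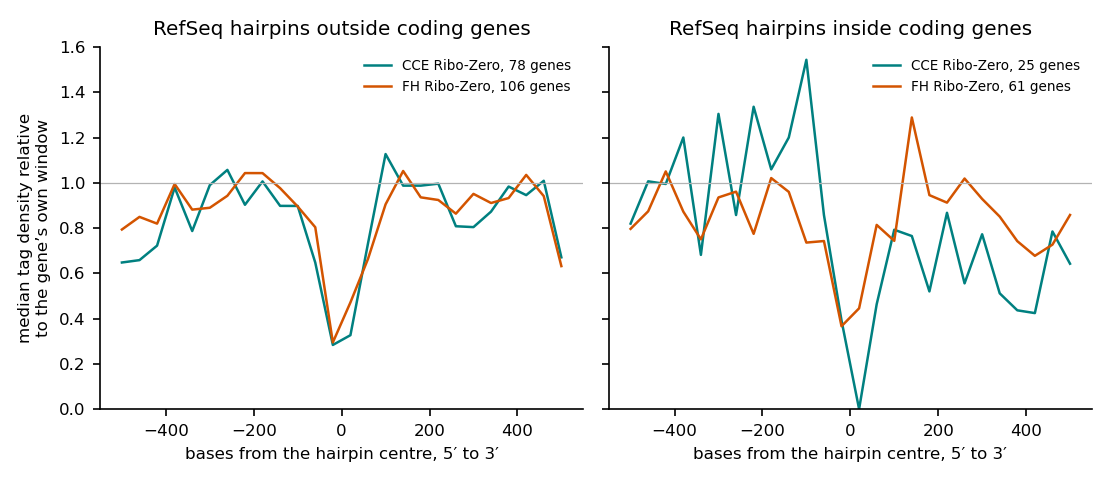
The median Ribo-Zero tag density around the hairpin centre, relative to the mean of each gene's own window, is plotted in bins of 40 bases from 5′ to 3′ for genes with a RefSeq hairpin outside (78 in CCE, 106 in FH) and inside (25 and 61) protein-coding genes. Outside, the lines drop to 0.283 and 0.295 at the hairpin, while the inside lines rest on fewer genes and scatter more.

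Single hairpins showed both the low density and exceptions. At Mir9-2 in FH Ribo-Zero RNA 24 hairpin tags stood beside 1370 flank tags, a density ratio of 0.181. At Mir9-3 1 hairpin tag stood beside 297 flank tags (0.0318), at Mirlet7c-2 none beside 367, at Mir205 none beside 95 and at Mir34a in CCE 1 beside 120 (0.073). At Mir125b-1 the ratio was 0.0926. Mir18, in the same cluster as Mir17, was an exception in both tissues, with 128 hairpin tags in CCE and 210 in FH and ratios of 6.93 and 6.32, while Mir17 had 0.287 and 0.112. Mirlet7i had a ratio of 2.86 in FH. Mir1983, which has a RefSeq hairpin on chromosome 13, was the reverse of the rest, with 356 hairpin and 2 flank tags in CCE and 450 and 14 in FH, ratios of 1353 and 244. Without Mir1983 the ratio over RefSeq hairpins was 0.542 in the RiboMinus preparations and 0.469 and 0.638 in Ribo-Zero RNA. Mir675, whose flank is the spliced H19 RNA, had ratios of 0.688 and 0.808.

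Among the genes with no RefSeq hairpin, most of those with at least 50 flank tags in Ribo-Zero RNA also had a ratio below 1, 21 of 26 in CCE and 49 of 63 in FH, with medians of 0.371 and 0.504. Here too the choice by flank tags favours ratios below 1. Summed over 797 such genes, and without AC113316.1, the ratio was 1.35 to 3.24 in the RiboMinus preparations (exact sign-flip p = 0.015625, adjusted 0.04375) and 1.45 to 2.15 in the 4 depleted RNAs (exact p = 0.125, the smallest possible), but 0.692 and 0.622 in Ribo-Zero RNA. The RiboMinus sum rested on AC115697.1, Mir2134-4 and Mir2134-2, which held 531 of the 1022 hairpin tags, and without these 3 genes the ratio was 0.700 to 1.72 with a mean of 0.920 (exact sign-flip p = 0.516, unadjusted, chosen after seeing the data). Over all 1159 genes the ratio of 19.6 to 51.6 rested on AC113316.1, and without it the range was 0.739 to 1.34 (exact p = 0.516, adjusted 0.802). Small nucleolar RNA genes, also short non-coding genes and often in introns, gave ratios of 10.7 to 22.0 in RiboMinus and of 78.5 and 43.4 in Ribo-Zero RNA when measured in the same way.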

How the data were processed

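The deposited files hold 1 line for each sequenced tag, with its position on mm9 and a score column. The score is 1 in every line as the authors deposited it, carries no measurement and was not used. Tags were counted by midpoint in windows of 2 kb on each side of miRNA genes, without coding exons, and in coding exons. Libraries of a preparation were summed. Features with a mean of 1 CPM were compared as log2(CPM + 1) with limma 3.58.1 in R 4.3.3, unblocked, with Benjamini-Hochberg adjustment. Figures were drawn with matplotlib 3.10.9, and tags were counted with pandas 2.3.3 and numpy 2.4.6 under Python 3.11.15. The 36-mers were found with numba 0.67.0, and scipy 1.17.1 gave the exact intervals and the correlations. Exact sign-flip and permutation tests went through every arrangement. Tested on simulated data with independent noise in each preparation, this comparison recovered 181 of 199 features changed 4-fold, with 12 false calls among 14136 features. The simulation did not cover preparations that share a depleted RNA, nor a share of changed features as large as the share called here.

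The members and lists were chosen with earlier results of these data known. Named were the points of reference, the groups, the 5 windows with the largest called change in each direction outside and inside genes whose preparations did not overlap and whose Ribo-Zero ratio had the same direction, and the 5 of highest level per kb in each tissue with at least 200 bases. Mir1251, Mir449c to Mir449a, Mir140, Mir181a-2 with Mir181b-2, Mir763 and the single hairpins were picked after their values were seen. Ribo-Zero ratios have exact 95% intervals and, where 1 tissue has no tag, a floor of 3 tags over the library or, in RiboMinus RNA, over the group. Intervals and floors cover counting error only. Sequenceable bases were found with 36-mers that occur 1 time on chromosomes 1 to 19, X, Y and M. The preparations of the same number and fragmentation deviated together across features (r = 0.516, 0.412 and 0.503 for the 3 pairs), but such pairs share the fragmentation, so the number was not used as a block. Libraries of the same title number had r of -0.483 to 0.386. Alternatives changed the pseudocount, filter, scaling, window, joining, repeated positions, location, fragmentation, block and preparations.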

Additional observations from a re-analysis of the deposited data

Results flagged for a closer look

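Of 94 groups of 4 CCE preparations examined (the named windows with a tag in CCE and the hairpin to flank ratios), 3 had a preparation far from the others. About 1 in 20 groups of normally distributed values would be marked by chance. That rate does not hold where 3 of the 4 values are 0, since the gap is then always 1. In the window of Mir3093 the CCE preparations held 0, 0, 0 and 0.37 CPM, and in those of Mir137 and of Mir449c to Mir449a they held 0, 0, 0 and 0.335 CPM, a gap of 1 relative to the whole range in each. Each of the higher values rests on 1 tag.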

How the results depend on the processing

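The 154 calls among miRNA windows became 234 with no filter on low features, 71 with a filter of 4 CPM and 250 with 5 kb on each side. With fragmentation as covariate 166 were higher and 44 lower, and in hydrolysed preparations 167 and 52, against 134 and 20, while 69.9% and 70.8% of all features were called in place of 51.8%. Outside genes the 57 calls became 35 with a filter of 4 CPM. Inside genes the 97 calls became 160 with no filter, 36 with a filter of 4 CPM, 61 with 1 kb and 177 with 5 kb. Leaving out 1 preparation gave 123 to 183 calls in all, 44 to 63 outside and 79 to 120 inside. The Ribo-Zero count past 2-fold, 149, was 243 with 5 kb and 57 past 4-fold. The preparation number as a replicate block gave 150 calls, and single libraries gave 165 with the title number as a replicate block and 176 without it. With the preparations of a depleted RNA summed there were 231 calls, 81 outside and 150 inside. The hairpin to flank ratio of all genes, 28.3, was 0.954 with repeated positions counted 1 time, 0.938 without the top gene, 66.6 with the flank widened to almost 2 kb, 23.2 in hydrolysed preparations, 27.5 with the preparations of a depleted RNA summed and 25.6 to 30.1 without 1 preparation. For RefSeq hairpins 0.551 became 0.715 with the flank widened to almost 2 kb (exact p = 0.03125, unadjusted; FH Ribo-Zero ratio 0.951 in place of 0.679), 0.468 in hydrolysed preparations, 0.529 over depleted RNAs and 0.523 to 0.575 without 1 preparation. With no RefSeq hairpin 1.90 became 0.920 without the 3 genes with the most hairpin tags. With 4 preparations or RNAs the smallest p is 0.125. The host correlation of 0.777 was 0.822 with a pseudocount of 0.25 CPM and 0.705 with 1 kb. The median stretch of 23063 bases was 23333 with 3 empty bins, 31744.5 with bins of 1000 bases and 20331 with at least 2 tags a bin. Reversals touched 16 windows, none of them called: AL669855.1 (0.38), Mir370 (0.19), Mir7-1 (-0.18) and Mirlet7g (-0.11) with 5 kb, Mir483 (0.062) and Mirlet7g (-0.050) with 1 kb, and Mir379 to Mir544 with windows not joined (0.059). With tags outside coding exons as library size they were Mir1906-1 (-0.078), Mir3082 (-0.028), Mir218-2 (-0.26), Mir337 to Mir136 (-0.29), Mir182 to Mir183 (-0.25) and Mirlet7g (-0.26). In hydrolysed preparations Mir218-2 was at -0.48, Mir7-1 at -0.10, Mir31 at 0.52 and Mirlet7g at -0.40, and in Nijmegen libraries Mir218-2 at -0.041, Mir31 at 0.18 and Mirlet7g at -0.021. Trimmed mean scaling gave 0.029 for Mir31, 0.026 for AC113316.1 and 0.021 for AC115697.1, and fragmentation as covariate -0.052 for Mirlet7g, 0.038 for AC113316.1 and 0.018 for AC115697.1. Mir31 was at 0.062 with the preparation block, 0.064 with crossed numbers and 0.089 in single libraries with and without the block. AC115697.1 was at 0.12 with repeated positions counted 1 time, 0.028 in Vienna-IMP libraries and 0.074 in single libraries with and without the block. Over depleted RNAs Mir17 to Mir92-1 was at 0.035, Mir31 at 0.38 and Mirlet7g at -0.11. Without 1 preparation the ranges were -0.39 to 0.093 for Mir379 to Mir544, -0.53 to 0.13 for AC113316.1, -0.62 to 0.27 for AC115697.1, -0.083 to 0.49 for Mir218-2, -0.71 to 0.061 for Mir882, -0.51 to 0.33 for Mir17 to Mir92-1, -0.43 to 0.57 for Mir31 and -0.19 to 0.43 for Mirlet7g. The causes were not tested. Of the 93 tested windows of the groups or named, 62 were called, and 14 of these lost the call under at least 1 alternative, among them Mirlet7a-2, Mirlet7i, Mir763, Mir1932, Mir133a-2, and Mir341 with Mir1188. Of the 31 not called, 27 gained a call under at least 1 alternative, 18 with fragmentation as covariate, 14 in hydrolysed preparations and 13 over depleted RNAs. With the preparation block Mir493 gained the call (0.86, adjusted p = 0.0433) and Mir181a-2 with Mir181b-2 lost it (1.09, adjusted p = 0.0569). Tags outside coding exons as library size, the sum over depleted RNAs, single libraries without a block, the split by RefSeq hairpin and the hairpin ratios without Mir1983 or the 3 genes were chosen after seeing the data.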
